A study of Daphnia magna with 48 samples.

Results

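The data described here are the 12 samples of the *Daphnia magna* clone IL, a parthenogenetic line (IL-M1-8) from an intermittent pond that dries in the Mediterranean summer, out of 48 samples from 4 clones. All samples labelled IL were taken: 6 were exposed to acute severe hypoxia (ASH, 12 h at or below 1 mg O2/L in sealed flasks) and 6 were controls without that exposure. Each set of 6 held 3 samples reared in normoxia (oxygen adjusted to 8 mg/L 2 times a day) and 3 reared in chronic mild intermittent hypoxia (CMIH, adjusted to 4 mg/L 2 times a day). Every sample was a pool of 2 whole adult females aged 25 days and kept at 20 °C, and its RNA was sequenced as Nanopore PCR-cDNA on a MinION. The series' design text describes the controls as animals sampled straight from the rearing tanks, and the methods too describe such animals as controls. The methods also describe animals held in the same type of flask, at 8 or 4 mg/L without food, and name these as the controls for sequencing. The labels say only Control. If the sequenced controls came straight from the tanks, low oxygen cannot be told apart from 12 h in a sealed flask. The comparison asks which transcripts of this clone differed after ASH, with the rearing condition as a block, and what the response was within each rearing condition. IL is 1 clone. CMIH was applied to whole tanks and ASH to sealed flasks of several animals, while the samples are pools of animals. The labels do not say that pools came from separate tanks or from separate flasks, so that p-values measure the spread between pools and not between separate exposures. Within a clone the samples were also combined into 3 replicate libraries before sequencing, and since no label gives the library of a sample, any spread between these libraries is part of the spread between pools and no library block could be fitted. Samples are named by their barcode number: 1 to 3 for normoxia ASH, 4 to 6 for CMIH ASH, 7 to 9 for normoxia controls and 10 to 12 for CMIH controls.

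Water fleas carry hemoglobin dissolved in the hemolymph, where it binds oxygen taken up across the body surface and delivers it to the tissues. In *Daphnia* the amount of hemoglobin is known to increase in oxygen-poor water, through hypoxia-inducible transcription factors that act on the hemoglobin genes, and animals from such water can be visibly red. Cytoglobins are globins that stay inside cells. The sources used here describe 4 globin transcripts, namely the hemoglobin precursors 11F0.55 and 3F39.53 and the cytoglobin precursors 35F4.44 and 0F43.50. These names give the assembly contig and the gene number on it. The other transcripts named below carry no description in the sources used here and are given by the same kind of name, and no markers of a tissue or cell type could therefore be checked.

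The 12 IL libraries held between 78407 and 408355 reads on the transcripts tested, with medians of 238862 in ASH and 265740 in controls. CMIH control 10 (78407 reads) and normoxia ASH 1 (93306 reads) were the shallowest, and 3 reads corresponded to between 7.35 and 38.3 CPM, read counts scaled to the library total. In IL 4 transcripts had no read and 3476 had at least 120. Rank correlations between IL libraries over these 3476 transcripts lay between 0.491 and 0.867 (Spearman), and CMIH ASH 6 stood apart with a median of 0.576 to the other 11 libraries against 0.653 to 0.788 for the rest.

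After ASH 6 transcripts were higher in IL and none was lower (edgeR quasi-likelihood F test, Benjamini-Hochberg adjusted p under 0.05), which is 0.0992% of all transcripts tested. The 6 were the hemoglobin precursor 11F0.55 and the undescribed 98F0.38, 0F57.61, 0F57.62, 1F48.69 and 64F2.112. In each of them all 6 ASH samples were above all 6 controls. Over all transcripts such a separation was found for 19 with ASH above (0.314%) and for 10 with ASH below (0.165%). At an unadjusted p under 0.05 there were 409 transcripts, 245 of them higher and 164 lower with ASH. The count depended on single libraries: it was 1 without normoxia control 9, 2 without CMIH control 10, CMIH control 12 or normoxia ASH 2, and between 5 and 8 without any other library. DESeq2 called 13 transcripts, 12 higher and 1 lower, which included all 6. The fit of all 48 samples called 8, of which 7 were higher and 1, 74F2.122, was lower, and in it 1F48.69 (edgeR adjusted p = 0.085) and 64F2.112 (edgeR adjusted p = 0.835) did not pass.

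**Figure D1:**
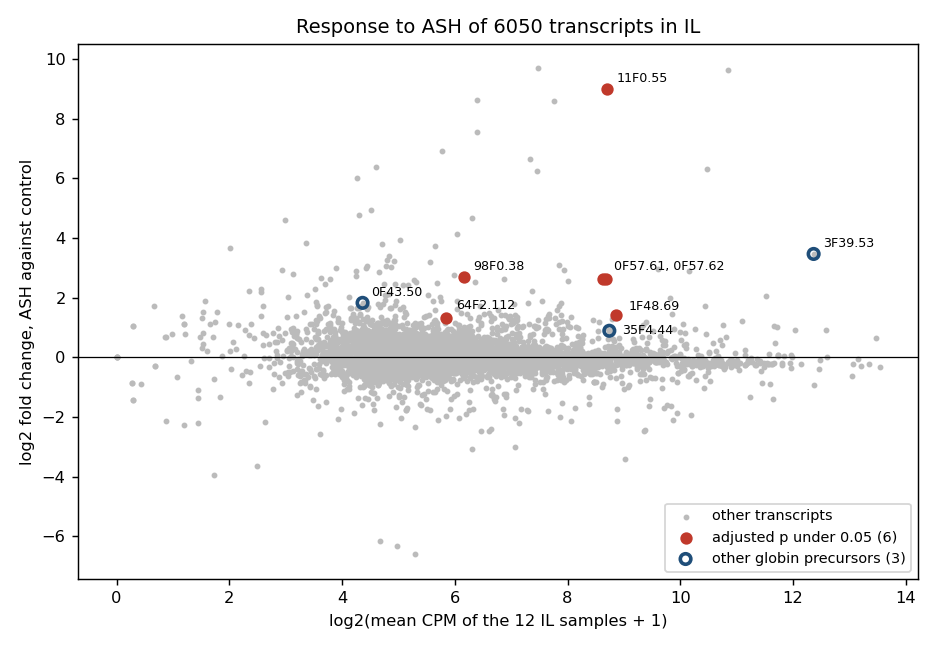
Log2 fold change with ASH against control (y axis) by mean abundance, log2(mean CPM + 1) of the 12 IL samples (x axis), for all transcripts. Filled red points are the 6 transcripts with adjusted p under 0.05 and open circles the other 3 globin precursors. Grey points for 1F10.46 (9.69) and 8F17.30 (9.63) lie above 11F0.55 (9.00) without passing, and 2 libraries held nearly all of their reads.

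The hemoglobin precursor 11F0.55 was almost absent without ASH and present in every ASH sample. It was at 0 RPKM (reads per kilobase of transcript, scaled to the total reads of the library) in normoxia controls 7 and 8, at 3.34 in normoxia control 9 and at 0 in all 3 CMIH controls. It reached 1095, 477.9 and 135 RPKM in normoxia ASH 1, 2 and 3 and 53.7, 299.6 and 71.5 RPKM in CMIH ASH 4, 5 and 6. The groups did not overlap although the ASH values themselves were widely spread. The fitted log2 fold change was 9.00 ± 0.94 (SE, n = 6 and 6, edgeR adjusted p = 0.00222). Since the controls held only 2 reads against 808 with ASH, the size of the change is better given as a ratio of summed CPM, 469-fold with a 95% counting interval of 130 to 3880 (exact binomial). This interval covers counting error only, and PCR copies are not independent molecules. In CMIH-reared animals no control read was seen and the level with ASH was at least 87.5-fold higher, taking 3 reads over the group as the floor. Without normoxia control 9, the library with both control reads, the edgeR adjusted p was 0.068, although no control read was then left.

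The second hemoglobin precursor, 3F39.53, was the most abundant globin transcript and ranked 242nd of all transcripts by mean RPKM in IL. Normoxia controls 7, 8 and 9 were at 202.7, 0.568 and 103 RPKM, and CMIH controls 10, 11 and 12 at 97.4, 127 and 104 RPKM. Normoxia ASH 1, 2 and 3 were at 2092, 1879 and 1626 RPKM, and CMIH ASH 4, 5 and 6 at 527, 963 and 756 RPKM. All 6 ASH samples were above all controls, and 1 control stood far below the others, with a single read where the rest had between 57 and 618. The log2 fold change was 3.46 ± 0.79 (SE), and the edgeR adjusted p of 0.315 did not pass. Without normoxia control 8 it was 3.11 with an edgeR adjusted p of 0.00295. It also passed with DESeq2 (adjusted p = 0.0119) and in the edgeR fit of all 48 samples (adjusted p = 0.000302). These were the only 3 of 17 alternatives under which it passed, and the highest adjusted p among the 17 was 0.666. The 17 recomputed for each named transcript were RLE factors, library size alone, the minimum of 120 reads, DESeq2, the fit of 48 samples and the 12 left-out samples.

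The cytoglobin precursor 35F4.44 differed between the rearing conditions in its control level. Normoxia controls were at 53.8, 54.7 and 55.8 RPKM, and CMIH controls at 187, 146 and 199 RPKM. Normoxia ASH samples were at 161, 196 and 160 RPKM and CMIH ASH samples at 163, 236 and 174 RPKM. The 3 normoxia controls were thus the only low samples of the 12, and the CMIH controls lay within the range of the ASH samples or just below it. The log2 fold change with ASH was 1.74 ± 0.26 (SE, n = 3 and 3) in normoxia-reared and 0.07 ± 0.25 in CMIH-reared animals, with edgeR adjusted p-values of 0.141 and 0.993. The difference between the 2 responses was -1.67 ± 0.36 (unadjusted p = 0.000563, edgeR adjusted p = 1), the lowest p of all transcripts for that term. In normoxia-reared animals the change passed with DESeq2 (adjusted p = 3.33e-05), with robust dispersions (edgeR adjusted p = 0.0282) and with a minimum of 120 reads (edgeR adjusted p = 0.0343). It did not pass there in the fit of all samples of the 4 clones, nor with any IL sample left out.

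The other cytoglobin precursor, 0F43.50, was scarce, with 14 reads in the 6 controls and 44 in the 6 ASH samples. Controls ranged from 0 to 14.6 RPKM and ASH samples from 14.6 to 41.1 RPKM, so that the groups touched without overlapping. The ratio of summed CPM was 3.65 with a counting interval of 1.96 to 7.21. The log2 fold change of 1.82 ± 0.56 (SE) did not pass (edgeR adjusted p = 0.574). Of the transcripts whose names place them beside the 4 globin precursors on the same stretch of contig, 9, 2, 8 and 8 in the order 11F0.55, 3F39.53, 35F4.44 and 0F43.50, none passed in either direction, and their median log2 fold changes lay between -0.30 and 0.23 against 0.02 over all transcripts. These groups included 35F4.45, which is named next to the cytoglobin precursor and lay lower in all ASH samples. It ranged from 80.8 to 210.0 RPKM in controls and from 30.7 to 80.6 RPKM with ASH, a log2 fold change of -1.24 ± 0.32 (edgeR adjusted p = 0.471). In whole animals, fewer cells of a type and less RNA per cell cannot be told apart.

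**Figure D2:**
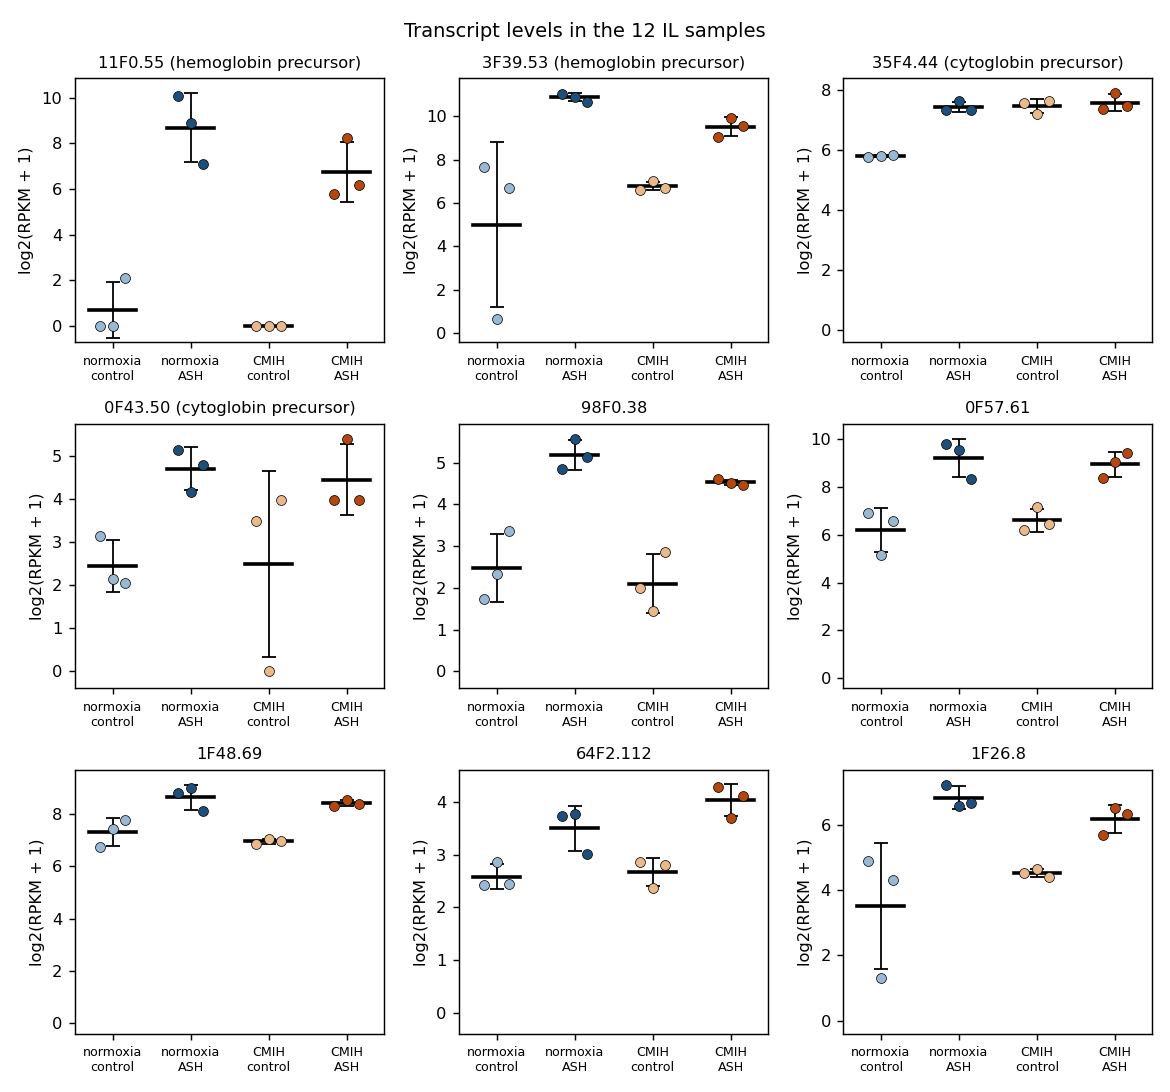
Level of 9 transcripts in the 12 IL samples as log2(RPKM + 1) (y axis) by group (x axis). Points are pools in order of barcode number, the horizontal line is the mean and the bars are 1 SD (n = 3). 11F0.55 was at 0 in 5 of 6 controls, 3F39.53 had 1 control at 0.568 RPKM, and 35F4.44 was low only in normoxia controls.

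Among the undescribed transcripts that rose, 98F0.38 was the most stable call. It was at 2.32, 4.02 and 9.25 RPKM in normoxia controls and at 3.02, 1.72 and 6.21 RPKM in CMIH controls. It was at 27.9, 46.6 and 34.1 RPKM in normoxia ASH and at 23.2, 21.9 and 21.1 RPKM in CMIH ASH samples. The lowest ASH value was more than 2 times the highest control value. Its log2 fold change was 2.68 ± 0.34 (edgeR adjusted p = 0.00837), and it passed under all 17 alternatives recomputed for single transcripts, with values between 2.47 and 3.02.

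1F48.69 was a more abundant transcript with a smaller change. It ranged from 106 to 217 RPKM in normoxia controls, from 114 to 132 in CMIH controls, from 274 to 516 in normoxia ASH and from 319 to 375 in CMIH ASH samples. The log2 fold change was 1.41 ± 0.20 (edgeR adjusted p = 0.0166), and it was nearly the same in both rearing conditions, 1.41 ± 0.30 in normoxia and 1.40 ± 0.30 in CMIH. It passed under 12 of 17 alternatives.

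0F57.61 and 0F57.62 bear consecutive gene numbers and had nearly the same read count in every library, with a difference of at most 11 reads in a library and totals of 1090 and 1055. The deposited counts may hold the same reads in both, and the pair may stand for a single transcript, so that the 6 calls could be 5. For 0F57.61 normoxia controls were at 119, 34.8 and 93.0 RPKM and CMIH controls at 73.3, 140.1 and 86.0 RPKM. Normoxia ASH samples were at 879.9, 739 and 319 RPKM and CMIH ASH samples at 327, 526 and 680.3 RPKM. The groups were well apart, and the log2 fold changes of the pair were 2.61 ± 0.37 and 2.62 ± 0.38 (edgeR adjusted p = 0.0166 for each). Both passed under 13 of 17 alternatives.

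64F2.112 passed narrowly and carried few reads, 51 in controls and 118 with ASH. Controls ranged from 4.15 to 6.25 RPKM and ASH samples from 7.05 to 18.5 RPKM. It rose by 1.30 ± 0.22 on the log2 scale (edgeR adjusted p = 0.0484). The call was lost under 12 of 17 alternatives, among them 10 of the 12 left-out samples (edgeR adjusted p between 0.0754 and 0.228), all but normoxia ASH 3 and normoxia control 8. Outside these 17, it passed with no rearing block (edgeR adjusted p = 0.0283).

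Of the transcripts that were higher with ASH but did not pass, the undescribed 1F26.8 had the largest change of the 5 named here. Normoxia controls were at 29.0, 1.48 and 19.1 RPKM and CMIH controls at 22.2, 24.1 and 20.1 RPKM. Normoxia ASH samples were at 149.5, 95.6 and 102 RPKM and CMIH ASH samples at 51.3, 91.0 and 79.1 RPKM. The groups did not overlap and normoxia control 8 was again the lowest sample, with 1 read. The log2 fold change was 2.23 ± 0.45 (edgeR adjusted p = 0.172), and without normoxia control 8 it was 1.94 (edgeR adjusted p = 0.0148). The other 4 with the lowest p were 1F21.30 (log2 fold change 1.41 ± 0.25, edgeR adjusted p = 0.0904), 0F72.87 (1.10 ± 0.20, 0.105), 108F0.63 (1.45 ± 0.28, 0.117) and 26F14.45 (1.32 ± 0.27, 0.172). 1F21.30 passed with DESeq2, with a minimum of 120 reads, in the fit of 48 samples and without CMIH ASH 6.

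No transcript was called lower with ASH in the fit of the 12 IL samples. In the fit of 48 samples 74F2.122 was, at -3.17 (edgeR adjusted p = 0.0241). The 10 with the lowest p in that direction were 6F28.130, 8F29.120, 0F37.25, 22F17.41, 35F4.45, 0F46.68, 21F4.122, 22F17.67, 10F27.34 and 11F6.32, with edgeR adjusted p-values between 0.315 and 0.545. 6F28.130 had a log2 fold change of -6.61, but CMIH control 12 held 166 of its 172 reads. 8F29.120 was the most abundant of the 10. It ranged from 557 to 1410 RPKM in controls and from 448 to 749 RPKM with ASH, with overlapping groups and a log2 fold change of -0.83 ± 0.20 (edgeR adjusted p = 0.392, DESeq2 adjusted p = 0.0457). 0F46.68 did not overlap between groups, with 498 to 760.0 RPKM in controls and 265 to 477 RPKM with ASH, and a log2 fold change of -0.71 ± 0.19 (edgeR adjusted p = 0.471). 0F37.25 passed under 1 of 17 alternatives, without CMIH ASH 5 (-1.68, edgeR adjusted p = 0.0395). 22F17.41 and 22F17.67 differed by at most 1 read in any library and may be the same reads counted for both.

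The largest fitted changes, apart from 11F0.55, came from few libraries. A log2 fold change above 4 was fitted for 17 transcripts, of which 16 did not pass, a limit chosen after the values had been seen. In each of these 16, 2 libraries held between 95.6% and 100% of the reads, against 61.4% for 11F0.55. CMIH ASH 5 and normoxia ASH 3 were the 2 libraries for 8 of them, and CMIH ASH 5 and CMIH ASH 6 for 6. The most abundant was 8F17.30, with 3100 reads in normoxia ASH 3 and 2666 in CMIH ASH 5 and at most 4 in any of the other 10 libraries. It reached 10660 and 5195 RPKM there, and its log2 fold change was 9.63 (edgeR adjusted p = 0.392). 8F17.24, from the same stretch of contig, had 2394 and 1888 reads in the same 2 libraries and at most 38 in any other. The other 4 ASH samples were thus as poor in reads of 8F17.30 as the controls. What these 2 pools had in common was not tested.

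Within each rearing condition no transcript passed (0% of all transcripts in normoxia-reared and 0% in CMIH-reared animals, edgeR, 3 samples against 3). At an unadjusted p under 0.05 there were 270 transcripts in normoxia-reared and 416 in CMIH-reared animals, and the lowest adjusted p-values were 0.141 and 0.396. DESeq2 called 9 and 22. The 9 in normoxia-reared animals were 11F0.55, 35F4.44, 0F57.61, 0F57.62, 98F0.38, 1F26.8, 1F48.69 and 3F39.53, all higher, and 11F20.103, which was lower. Of the 22 in CMIH-reared animals 8 were higher, among them 11F0.55, 1F48.69, 0F57.61, 0F57.62 and 98F0.38, and 14 were lower, led by 74F0.50 and 5F29.84 (DESeq2 adjusted p = 0.000381 and 0.00904). Without CMIH control 11, edgeR called 7 transcripts lower in CMIH-reared animals, these 2 among them. Without CMIH ASH 6 it called 6F33.22, again lower, both there and for the difference between rearing conditions, and without normoxia control 8 it called 3F39.53 higher in normoxia-reared animals. The normoxia ASH libraries held fewer reads (444163 in all) than the normoxia controls (900347) or the CMIH ASH libraries (963934).

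The 6 transcripts that passed over both rearing conditions were higher with ASH in each. 11F0.55 had log2 fold changes of 8.91 ± 1.36 (SE) in normoxia-reared and 9.37 ± 1.70 in CMIH-reared animals. 98F0.38 had 2.95 ± 0.47 and 2.37 ± 0.49, and 0F57.61 had 2.99 ± 0.52 and 2.23 ± 0.50. 64F2.112 had 1.12 ± 0.32 and 1.46 ± 0.30. Over the 245 transcripts that were higher at an unadjusted p under 0.05 the median log2 fold change was 0.81 in normoxia-reared and 1.06 in CMIH-reared animals, and over the 164 lower ones -0.73 and -0.85. Both lists, like the 6 transcripts above, were chosen on these same samples with both rearing conditions together. Their direction in each condition follows largely from that choice and is no separate evidence of a shared response.

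No transcript passed for the difference between the responses of CMIH-reared and normoxia-reared IL (0% of all transcripts, lowest edgeR adjusted p of 1, DESeq2 0), and 240 had an unadjusted p under 0.05. The lowest p belonged to the cytoglobin precursor 35F4.44, described above, followed by 5F29.84 with a difference of -2.77 ± 0.64 (unadjusted p = 0.0011, edgeR adjusted p = 1). 5F29.84 ranged from 968 to 1568 RPKM in the 6 normoxia-reared samples, from 348 to 1342 in CMIH controls and from 109.5 to 344 in CMIH ASH samples. Its low values were those of the CMIH ASH samples, with CMIH control 11 just above them. 0F63.21, with the lowest p in CMIH-reared animals, ranged from 38.6 to 46.4 RPKM in the 6 normoxia-reared samples, from 52.2 to 70.8 in CMIH controls and from 17.1 to 26.4 in CMIH ASH samples. Its log2 fold change there was -1.52 ± 0.27 (edgeR adjusted p = 0.396, DESeq2 adjusted p = 0.0494).

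**Figure D3:**
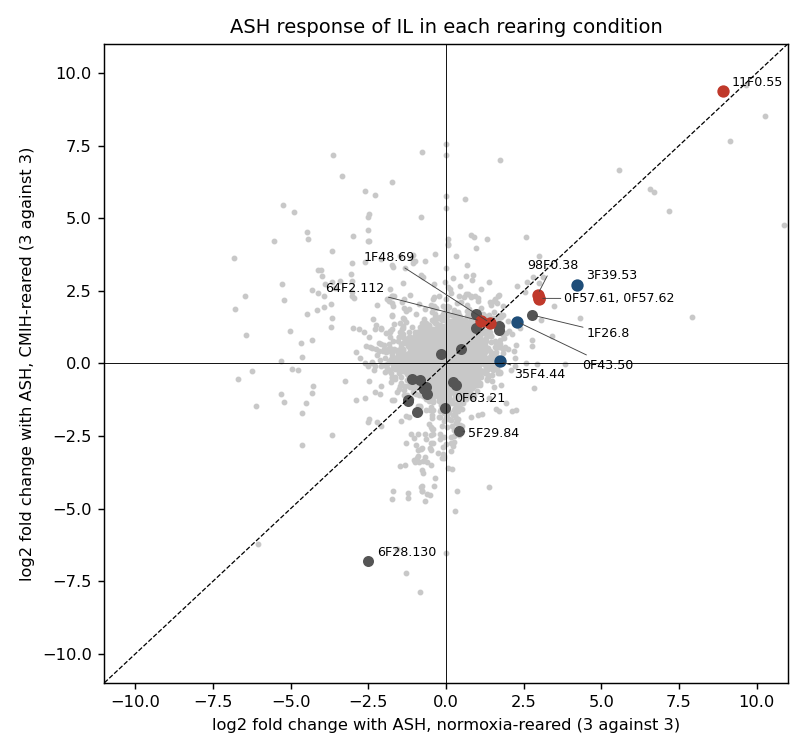
Log2 fold change with ASH in normoxia-reared (x axis) and in CMIH-reared IL (y axis), each 3 samples against 3, for all transcripts. The dashed line marks equal responses, red points are the 6 transcripts that passed over both conditions, blue points are the other globin precursors and dark grey points are other named transcripts. 35F4.44 lies at 1.74 and 0.07, whereas 1F48.69 (1.41 and 1.40) lies on the line.

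The response of IL was then set beside that of the 3 other clones, FI, also from an intermittent habitat, and GB and HU from permanent habitats, each with 12 samples of the same design. Each clone was prepared and sequenced in its own runs, so that levels cannot be compared between clones apart from library and run, but each response is measured within a clone. The same test called 86 transcripts in FI alone (1.42%), 11 in GB (0.182%) and 1 in HU (0.0165%). Such counts also depend on the spread between pools and were not compared by a test. The count for IL itself lay between 1 and 8 with a sample left out. The 66 that were higher in FI had a median response of 0.41 on the log2 scale in IL against 2.22 in FI itself. Of these, 4 passed in IL and 53 were above 0, a share of 80.3% against 52% over all transcripts. The 20 that were lower in FI (median -2.07 there) had a median of 0.11 in IL, and 15 of them were above 0. The 11 that were higher in GB were all above 0 in IL, 2 of them passed, and their medians were 1.41 in IL and 2.38 in GB. These counts are descriptions of lists chosen on the other clones' own calls.

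In the fit of all 48 samples 11F0.55 had log2 fold changes of 8.78 ± 0.91 (SE) in IL, 8.68 ± 1.07 in FI, 6.60 ± 0.77 in GB and 5.28 ± 0.74 in HU. The 95% intervals of IL (6.93 to 10.64) and HU (3.78 to 6.78) did not overlap. Its 6 control samples held 2 reads in IL, 2 in FI, 14 in GB and 17 in HU, and since the CMIH controls of IL held none, the fitted value of IL rests on few control reads and the test of the difference between clones gave no usable error. 3F39.53 had 3.46 in IL, 3.50 in FI, 2.79 in GB and 2.55 in HU. The undescribed 98F0.38 had 2.65 in IL, 3.11 in FI, 2.44 in GB and 2.03 in HU. 35F4.44 had its lowest value in IL, 0.90, against 2.03 in FI, 1.32 in GB and 2.84 in HU, and the difference between IL and the mean of the others was -1.17 ± 0.32 (unadjusted p = 0.00088, edgeR adjusted p = 0.541). 64F2.112 went the other way, at 1.28 in IL against -1.10 in FI, -1.0 in GB and -1.12 in HU. Its difference from the mean of the others was 2.35 ± 0.58 (unadjusted p = 0.000232, edgeR adjusted p = 0.303), which did not pass.

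**Figure D4:**
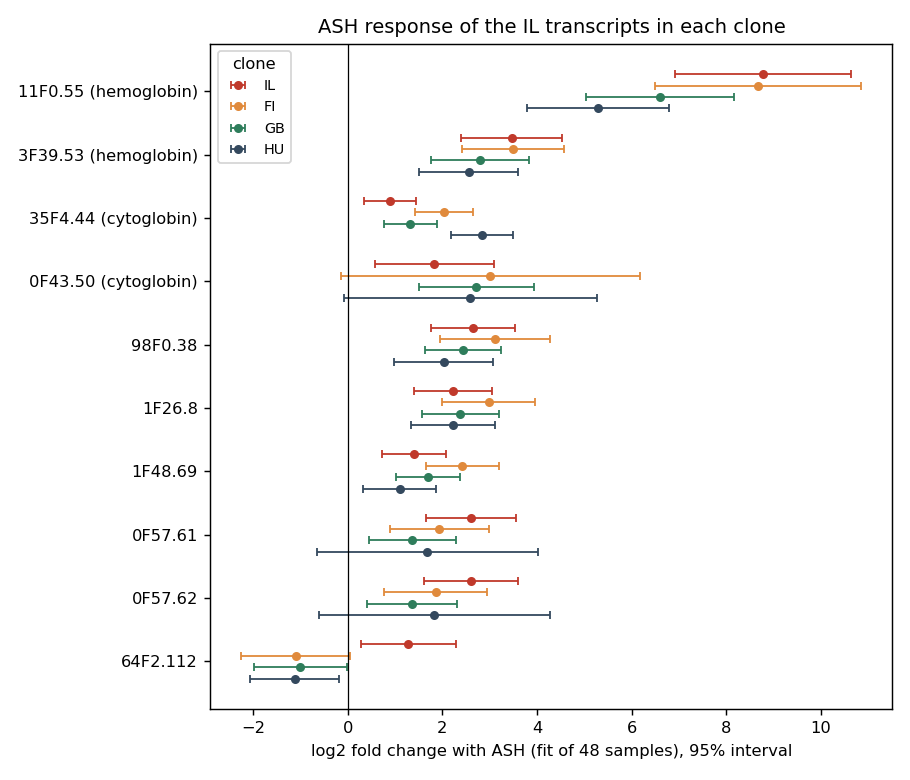
Log2 fold change with ASH (x axis, point) with its 95% interval (bar) for 10 transcripts (rows) in the 4 clones (colours), from the fit of 48 samples with 6 ASH and 6 control samples per clone. The intervals of all 4 clones overlap for 3F39.53 and 98F0.38, and those of IL and HU do not for 11F0.55. The IL value of 11F0.55 rests on 2 control reads, and the test of its difference between clones gave no usable error. The point of 64F2.112 is above 0 in IL and below 0 in the other clones, and its FI interval (-2.25 to 0.05) includes 0. In this fit 64F2.112 passed in none of the 4 clones.

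Against the mean response of FI, GB and HU no transcript passed in IL (0% of all transcripts, lowest edgeR adjusted p of 0.288), 355 had an unadjusted p under 0.05, and DESeq2 called 1, 23F16.71, with 26 and 15 of its 42 IL reads in normoxia control 9 and CMIH control 10. The lowest edgeR p-values there belonged to 1F21.30, with a difference of -1.88 ± 0.43 (SE), and 21F4.122, with -1.20 ± 0.28. The response of 1F21.30 was 1.42 in IL, 2.90 in FI, 2.08 in GB and 4.92 in HU. Its HU value rests on 18 reads with ASH and 0 in the controls. Against FI alone 6 passed (0.0992%), 2 with a higher and 4 with a lower response in IL, whereas DESeq2 called 81 and edgeR with a minimum of 480 reads called 43. These differences lie against a median of -0.18 over all transcripts, which was 0.07 with RLE, the size factors that DESeq2 also uses, and 0.12 with library size alone, and with either of these 5 passed, 4 higher and 1 lower, of which 3 were the same. For 21F1.27 the response was -0.22 ± 0.32 (SE) in IL and 2.78 ± 0.37 in FI, a difference of -3.0 ± 0.49 (edgeR adjusted p = 0.00252). Its median went from 199 RPKM in controls to 153 with ASH in IL, and from 25.4 to 146 in FI. The FI values rest on 39 reads in controls and 718 with ASH, those of IL on 1859 and 1271. For 11F25.98 the difference was 3.12 ± 0.54 (edgeR adjusted p = 0.00337) and for 15F25.74 it was 2.96 ± 0.55 (edgeR adjusted p = 0.0089), with responses of -3.08 and -2.50 in FI and of 0.04 and 0.46 in IL. In GB and HU the responses of these 3 were near those of IL and not of FI, at 0.10 and 0.16 for 21F1.27, 0.31 and 0.16 for 11F25.98 and -0.26 and 0.06 for 15F25.74. These 3 passed under all 18 alternatives recomputed for this difference. The others were 21F4.122 (-1.85 ± 0.38, edgeR adjusted p = 0.026), 4F35.37 (-2.93 ± 0.62, 0.0494) and 0F54.73 (-2.75 ± 0.59, 0.0494), of which 21F4.122 passed under 11, 4F35.37 under 8 and 0F54.73 under 7 of the 18. The response of 21F4.122 was -0.02 in GB and 0.15 in HU, and that of 0F54.73 was 0.59 in GB and 2.90 in HU, close to FI (3.03). The FI controls held only 19 reads of 21F4.122 and 6 of 4F35.37. The count fell to 3 without normoxia ASH 1, normoxia control 7, normoxia control 8 or CMIH control 12.

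ASH and control samples of IL lay no further apart in 3 principal components than many relabelled sets did. This does not show that ASH and control samples were alike. The first 3 principal components of log2(CPM + 1), over the 3476 transcripts with at least 120 reads, held 36.8%, 21.0% and 10.6% of the variance. The distance between the means of ASH and control samples in these components was 28.9, and relabelling the samples within each rearing condition in all 400 ways gave distances from 2.36 to 58.4 (exact permutation test, p = 0.41, where the smallest possible p is 0.005). The distance between CMIH and normoxia, measured in the same way and not tested, was 42. On component 1 CMIH ASH 6 (79.0), normoxia control 9 (50.6) and CMIH control 12 (42.7) lay far from the 3 normoxia ASH samples (-34.6 to -26.6). CMIH ASH 6, normoxia control 9 and CMIH control 12 each have the highest barcode number of their group, as has normoxia ASH 3 (-26.6), and whether a number marks a replicate library was not tested. On component 2 CMIH ASH 5 was the highest, at 64.3.

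**Figure D5:**
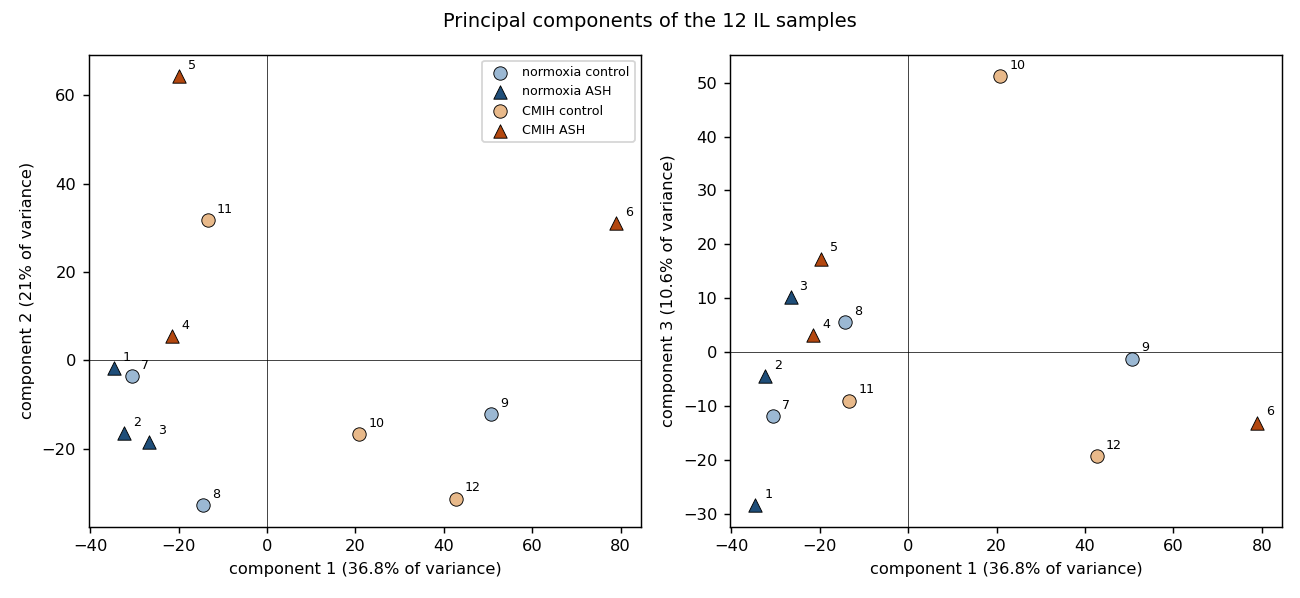
Scores of the 12 IL samples on components 1 and 2 (left) and 1 and 3 (right) of log2(CPM + 1), in log2 units, with the share of variance on each axis and the barcode number beside each point. Triangles are ASH samples and circles controls, and the colour gives the rearing condition. On components 1 and 2 the normoxia ASH samples lie together with normoxia controls 7 and 8, and CMIH ASH samples 4, 5 and 6 lie far from each other. On component 3 normoxia ASH 1, 2 and 3 are spread as well, at -28.5, -4.46 and 10.2.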

How the data were processed

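The authors used Guppy 3.6 from basecalling to mapping of the Nanopore reads, against *D. magna* reference transcriptome 3.0 reduced to its longest isoform per gene (SAMtools is named in the submitters' processing notes). The authors kept 6050 transcripts by a minimum of 72 reads over the 48 samples and deposited their raw counts, and RPKM values scaled by the reads on these transcripts. Counts were tested here with edgeR 4.0.16 in R 4.3.3 (TMM, quasi-likelihood F test, Benjamini-Hochberg adjustment over 6050, adjusted p under 0.05): rearing and ASH for the 12 IL samples, 4 groups for the response per rearing condition, and 16 groups of all 48 samples for differences from other clones. The SE of a fold change is its size divided by the square root of F. RPKM is printed as deposited. Alternatives were RLE factors, library size alone, at least 120 reads (480 over 48 samples), DESeq2 1.42.0, robust dispersions, removal of the 10 most abundant transcripts, the fit of 48 samples, limma 3.58.1 on log2(RPKM + 1), an interaction model, no rearing block, and each IL sample left out.

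The steps were tested on simulated data. The transcripts named were those passing, the 10 lowest p in each direction, the 4 globin precursors, the lowest p of each further comparison and 2 from an earlier analysis, and these members and lists were chosen with earlier results of these data known. Transcripts named for a large change or for 1 alternative were chosen after their values were seen. No identifier matched the RefSeq gene table, and 0 columns of other samples were left out.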

Additional observations from a re-analysis of the deposited data

Results flagged for a closer look

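Of 22 sets of 6 IL samples examined (ASH or control samples for 10 transcripts, and total reads), 4 had 1 sample far from the other 5, where chance gives about 1 in 20. All 4 were control samples, judged on the log2 scale. Normoxia control 8 was far below the other controls for the hemoglobin precursor 3F39.53 (0.568 RPKM, 1 read) and for 1F26.8 (1.48 RPKM, 1 read), and normoxia control 9 was the only control with reads of 11F0.55 (3.34 RPKM). For 11F0.55 the other 5 controls were at 0, so that any read in 1 control would have been picked out, and it cannot be held against the chance rate. The fourth was the depth of CMIH control 10 (78407 reads). The causes were not tested.

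The response to ASH differed between IL and FI, by the test of the difference itself, for 21F1.27 (-3.0 on the log2 scale, IL minus FI), 11F25.98 (3.12), 15F25.74 (2.96), 21F4.122 (-1.85), 4F35.37 (-2.93) and 0F54.73 (-2.75). For 21F1.27, 11F25.98 and 15F25.74 the responses of GB and HU lay between -0.26 and 0.31, those of IL between -0.22 and 0.46, and those of FI were 2.78, -3.08 and -2.50 in the same order. These 3 passed under all 18 alternatives, but 21F4.122 passed under 11, 4F35.37 under 8 and 0F54.73 under 7. For 0F54.73 the response in HU (2.90) was close to that in FI (3.03). Reads in the FI controls were few, 39 for 21F1.27 and 6 for 4F35.37.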

How the results depend on the processing

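Responses of single transcripts kept their direction in 505 of 507 recomputed values. 11F25.98, at 0.10, ranged from -0.27 to 0.28 with a sample left out and was reversed in 2 of these, at -0.27 without CMIH ASH 6 and -0.11 without CMIH control 11. The count for ASH in IL (6) was 13 with DESeq2 and 8 in the fit of 48 samples (7 higher, 1 lower, 4 of the 6 among them), and lay between 1 and 8 when a sample was left out. For normoxia-reared IL (0) it was 1 with the minimum of 120 reads (35F4.44), 1 with robust dispersions (35F4.44), 9 with DESeq2 and 4 in the fit of 48 samples, and 0 to 1 with a sample left out. For CMIH-reared IL (0) it was 22 with DESeq2 and 2 in the fit of 48 samples (11F0.55 and 6F28.130), and 0 to 7 with a sample left out. For the difference between rearing conditions (0) it was 0 to 1 with a sample left out. For IL against FI (6) it was 43 with the minimum of 480 reads, which tested 2442 transcripts, 81 with DESeq2, 13 without the 10 most abundant transcripts, and 3 to 9 with a sample left out. For IL against the mean of the others (0) it was 1 with DESeq2, and 0 with every sample left out. The distance of 28.9 between ASH and control samples lay between 19.1 and 42.6 with a sample left out (p from 0.095 to 0.77) and between 22.0 and 38.1 under 4 other choices (p from 0.39 to 0.42). The causes were not tested. No paired analysis was possible because IL groups carry different barcode numbers and no label gives the replicate library of a sample.

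Depth limits the low counts: 3 reads correspond to 38.3 CPM in CMIH control 10 and to 7.35 CPM in normoxia control 7. With 3 samples per group, a p that misses the threshold does not show that levels were equal. Some transcripts with no read in a group of a clone, such as 11F0.55, gave no usable error for the difference between clones. Others, such as 1F21.30 with no read in the HU controls, gave one, but the response of that clone then rests on its ASH reads alone.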
